A study of Homo sapiens with 12 samples.

Results

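The mitochondrial ribosomal proteins were taken as every gene of the expression table whose symbol is MRPL or MRPS followed by a number and, in some cases, A, B or C. The rule found 78 genes among the 22963 gene names of the table. Of these, 49 are named MRPL, for the large subunit, and 29 are named MRPS, for the small subunit. The rule uses names alone, though it was chosen with earlier results of these data known. RNA was sequenced from 12 libraries of 2 human hepatoma cell lines in 4 groups of 3. PLC/PRF5 cells carried either an empty lentiviral vector or the same vector with the EGR1 coding sequence behind a CMV promoter, selected as stable lines. MHCC97H cells were either parental or labelled EGR1 knockout. The study made its knockout cells with a CRISPR/Cas9 lentivirus and expanded them from single cells. The clone that was sequenced is not given in the sources used here. EGR1 is a zinc-finger transcription factor that is induced quickly by growth signals, and the study asked what its gain or loss does in hepatoma cells. The titles number the libraries of each group as biological replicates but do not say whether they came from separate cultures or clones, so p-values measure the spread between these libraries.

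Mitochondria keep their own ribosome, which makes the few proteins encoded by mitochondrial DNA. All of those proteins are subunits of the respiratory chain or of ATP synthase. Every protein of the mitoribosome, in contrast, is encoded in the nucleus, made in the cytosol and imported, while its RNAs are transcribed inside the organelle. The large subunit joins amino acids and passes the chain through an exit tunnel to the inner membrane, and the small subunit binds the mRNA and reads its codons. The names do not follow the structure in every case. MRPS30 and MRPS18A are built into the large subunit, and MRPS36 is now known as a component of the alpha-ketoglutarate dehydrogenase complex of the citric acid cycle rather than a ribosomal protein.

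The authors deposited FPKM, in which the fragments of a gene are divided by its length and by the total mapped in that library. These summed to 376335 to 437652 per library. Read numbers are unknown, and counting errors cannot be stated. The EGR1 mRNA was set beside the labels. Its FPKM was 1.97, 1.43 and 2.03 with the vector and 56.3, 50.2 and 52.2 with EGR1 overexpression. In MHCC97H it was 20.2, 23.1 and 21.2 in parental cells and 35.2, 50.3 and 32.9 in the libraries labelled knockout, a log2 fold change of 0.83 ± 0.15 (SE, n = 3 and 3, adjusted p = 0.00126, limma). The EGR1 mRNA was thus higher, not lower, under the knockout label. The study reports western blot and DNA sequencing of its knockout clones, and an mRNA level does not show whether protein is made. The protein was not measured in these files, so directions drawn from this group are given for the libraries labelled knockout. Of 11 hepatocyte and hepatoma markers, 10 had a mean FPKM of at least 1 in both PLC/PRF5 groups, against 6 in parental MHCC97H and 7 in the libraries labelled knockout. ALB, the gene of serum albumin, was among those under 1 in parental MHCC97H. The summed FPKM of these markers was 1800 to 1940 with the vector, 2700 to 3650 with EGR1, 40.5 to 49.9 in parental MHCC97H and 80.9 to 84.8 in the libraries labelled knockout. Markers of other cells were not all absent. Of the leukocyte markers, PTPRC and CD3E stayed under a mean FPKM of 1 in every group, CD68 ran from 28.5 to 53.8 over the 4 groups, and CD79A was at 0.0674 and 0.108 in the PLC/PRF5 groups but at 24.0 and 26.0 in parental MHCC97H and under the knockout label. Of the endothelial markers, VWF and CDH5 stayed under 1 and PECAM1 ran from 1.5 to 5.99. The 4 fibroblast markers and HBB stayed under 1, and HBA1 was at 0.909 with the vector, 1.63 with EGR1 and under 0.03 in both MHCC97H groups. The part of these markers in the results was not tested.

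The members were expressed in nearly every library. MRPS17 in the third library labelled knockout was the 1 member listed at 0, and no other value lay under 1 FPKM. Over the 12 libraries the mean FPKM of a member ran from 4.85 for MRPS31 to 206 for MRPL12. MRPL12 belongs to the stalk that recruits translation factors, and it also binds the mitochondrial RNA polymerase. The next highest were MRPS34 at 124, MRPS12 at 111, MRPS24 at 91.0 and MRPS7 at 88.6. MRPS12 lies in the decoding centre, MRPS24 lines the mRNA entry channel, and MRPS34 is a small-subunit protein with no bacterial relative. The lowest after MRPS31 were MRPL50 at 6.58, MRPS25 at 6.68, MRPS14 at 7.95 and MRPS36 at 8.41. These orders are over cells of both lines and were not tested. In the annotation 23 members overlap a gene on the same strand, 38 overlap a gene on the other strand and 34 have a pseudogene of the same name, and their values are less certain because the rules for shared reads and strand are not stated.

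Together the members held little of the summed FPKM, and less in parental MHCC97H than in the other groups. Their share of the summed FPKM was 0.846%, 0.884% and 0.826% with the vector and 0.834%, 0.894% and 0.911% with EGR1. It was 0.623%, 0.648% and 0.678% in parental MHCC97H and 0.765%, 0.790% and 0.827% in the libraries labelled knockout. The ranges of the PLC/PRF5 groups overlapped, and every parental library lay below every library of the other 3 groups. In bulk RNA fewer cells of a type and less RNA per cell cannot be told apart. The order of the subunits depended on the measure in parental MHCC97H. The median FPKM of MRPL members was 20.0, 20.4 and 22.7 there, below the 22.9, 23.7 and 23.9 of MRPS members, and above that of MRPS members in every library of the other groups. The mean log2(FPKM + 1) of MRPL members exceeded that of MRPS members by 0.25, 0.29 and 0.27 with the vector, by 0.20, 0.27 and 0.28 with EGR1, by 0.09, 0.13 and 0.17 in parental MHCC97H, and by 0.32, 0.34 and 0.41 in the libraries labelled knockout. With MRPS30 and MRPS18A counted as large and MRPS36 left out, the parental gap shrank to between 0.01 and 0.08, and that of the libraries labelled knockout to between 0.23 and 0.31. The MHCC97H groups did not overlap by either count. No p is given for these summed scores.

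**Figure D1:**
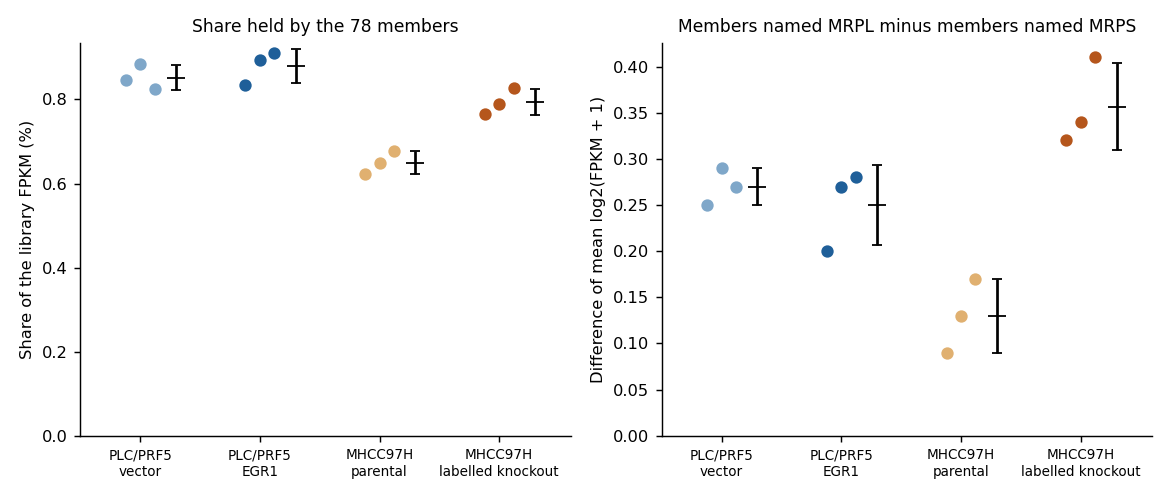
The left panel plots the percentage of each library's summed FPKM held by the 78 members and the right panel the mean log2(FPKM + 1) of MRPL members minus that of MRPS members, with 1 point per library and the mean ± SD of 3 libraries beside them. The 3 parental MHCC97H libraries are the lowest in both panels, at 0.623% to 0.678% and at 0.09 to 0.17.

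The first comparison asked what raised EGR1 does to these genes in PLC/PRF5. Few members passed the threshold. Those that rose were MRPL1, MRPL3, MRPL36, MRPL39, MRPS18C and MRPS25, and MRPL23 fell, with log2 fold changes between -0.35 and 0.65. Across the 11671 genes whose FPKM averaged 1 or more over the 6 libraries, limma on log2(FPKM + 1) with Benjamini-Hochberg adjustment at 0.05 called 29.6%, of which 19.2% of genes were higher and 10.4% lower. Among the 78 members 7 (8.97%) were called, 6 higher and 1 lower, a smaller share than among all genes. The groups did not overlap for 18 members (23.1%), against 47.7% of all genes. The median log2 fold change was 0.12 over the members and 0.09 over all genes tested, and the SD of the fold changes was 0.20 and 0.38. The median was 0.09 for MRPL members and 0.13 for MRPS members.

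MRPS18C had the largest rise. It is 1 of 3 paralogs of a bacterial small-subunit protein, and the others are MRPS18A and MRPS18B. Its FPKM was 10.8, 15.8 and 11.3 with the vector and 16.5, 22.7 and 21.7 with EGR1, a log2 fold change of 0.65 ± 0.16 (SE, n = 3 and 3, adjusted p = 0.0165, limma). The highest vector library stood just under the lowest EGR1 library. MRPS18A changed by 0.13 ± 0.11 (adjusted p = 0.393) and MRPS18B by -0.03 ± 0.08 (adjusted p = 0.770), and neither passed.

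MRPL1, the protein of the mobile stalk beside the site where used tRNAs leave, had 13.5, 23.4 and 15.0 FPKM with the vector and 24.7, 25.3 and 25.4 with EGR1. Its log2 fold change was 0.55 ± 0.17 (adjusted p = 0.0395). The second vector library lay closer to the EGR1 libraries than to the other vector libraries. MRPL36, a small large-subunit protein with a bacterial relative, had 36.1, 43.4 and 35.8 FPKM against 43.5, 63.7 and 60.2 with EGR1, a log2 fold change of 0.51 ± 0.15 (adjusted p = 0.0299). The second vector library and the first EGR1 library almost met. MRPS25, a small-subunit protein with no bacterial relative, had 6.73, 7.78 and 5.98 FPKM against 8.92, 10.2 and 9.5, a log2 fold change of 0.43 ± 0.11 (adjusted p = 0.0189). MRPL39, which is also specific to mitochondria, had 16.3, 22.3 and 16.1 FPKM against 22.5, 25.7 and 25.2, a log2 fold change of 0.42 ± 0.13 (adjusted p = 0.0391). MRPL3, whose bacterial relative reaches towards the catalytic centre, had the smallest rise of the set. Its FPKM was 43.2, 48.5 and 47.8 against 51.6, 59.7 and 63.1, a log2 fold change of 0.31 ± 0.10 (adjusted p = 0.0423).

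MRPL23 stands at the rim of the exit tunnel, and it moved the other way. Its FPKM was 85.5, 91.7 and 78.9 with the vector and 59.8, 67.7 and 72.4 with EGR1, a log2 fold change of -0.35 ± 0.10 (adjusted p = 0.0289). The groups did not overlap. MRPL23 is overlapped on the other strand by MRPL23-AS1, and the use of strand in the counting is not stated.

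These 7 calls rest on few libraries. Without the first EGR1 library 17 members were higher, and without the second vector library 10 were. Without the first vector library 1 member was higher. Without the second EGR1 library, the third EGR1 library or the third vector library limma called 0 higher at the adjusted threshold. At an unadjusted p under 0.05, 6, 6 and 8 members were higher there. In these last fits 16.7%, 19.0% and 19.2% of all genes were called in either direction. The share of all genes was 27.1% without the first EGR1 library. It was 34.3% without the second vector library and 20.2% without the first. Each of the 7 calls was lost in at least 1 of the fits that left out a library, with a highest adjusted p between 0.0631 and 0.151. The member MRPL53 was picked out after its values were seen. It had 81.5, 100.0 and 88.2 FPKM with the vector but 19.4, 95.9 and 102 with EGR1, and it did not pass (adjusted p = 0.387). The gene overlaps CCDC142 on its own strand. After removing a trend on GC content and length, 13 members were higher and 8 lower. Over the 10994 genes with an annotation 1838 were higher and 1988 lower in that fit. Of the 7 calls 6 held. MRPL3 kept its direction but not its call, at 0.17 (adjusted p = 0.125).

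The second comparison asked how the members differ between MHCC97H libraries labelled EGR1 knockout and parental ones. The parental cells are not described as infected or cloned. Editing of EGR1, the Cas9 virus and growth from a single cell therefore cannot be told apart. Many members passed in each direction. Most proteins of the stalk and the central protuberance were higher, though fewer of them after the GC and length correction described further on. The largest rises were those of MRPL28, MRPL34, MRPL55, MRPL54 and MRPS34, and MRPL1, MRPL19, MRPL39, MRPL50 and MRPS36 had the largest falls. Of the 78 members 50 (64.1%) passed, against 66.3% of the 11577 genes tested. Higher were 37 members (47.4%), against 34.8% of genes, and lower were 13 (16.7%), against 31.5% of genes. The groups did not overlap for 56 members (71.8%), the same share as the 71.8% of all genes. The median log2 fold change was 0.26 over the members and 0.02 over all genes, a difference of 0.24. Scaling every library to the same FPKM total moved the median of all genes to -0.11 and that of the members to 0.12, a difference of 0.22, and then 31 members were higher and 17 lower. The SD of the fold changes was 0.62 for the members and 0.62 for all genes. By subunit, 25 of 49 MRPL members were higher and 7 lower, with a median of 0.37, and 12 of 29 MRPS members were higher and 6 lower, with a median of 0.21.

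MRPL12 was the most abundant member in every library of MHCC97H. Its FPKM was 168, 182 and 205 in parental cells and 330, 320 and 393 in the libraries labelled knockout, a log2 fold change of 0.91 ± 0.11 (SE, n = 3 and 3, adjusted p = 0.000179, limma). The groups lay far apart. Each of the other stalk proteins rose too, MRPL11 by 0.95 ± 0.15 (adjusted p = 0.000603) and MRPL10 by 0.44 ± 0.10 (adjusted p = 0.00503). Of the 9 members placed in the central protuberance, the crest that holds the structural tRNA, 7 were higher and 0 lower, with a median log2 fold change of 0.37. With a trend on GC content and length removed, 4 were higher and 2 lower, with a median of 0.03, and 1 of the 3 stalk proteins was higher, MRPL10 being at 0.03 (adjusted p = 0.735) and MRPL12 at 0.15 (adjusted p = 0.0573). One of the crest proteins, MRPL58, is a peptidyl-tRNA hydrolase that frees stalled ribosomes. Its FPKM was 53.9, 59.1 and 65.6 against 68.3, 71.9 and 73.7, a log2 fold change of 0.26 ± 0.09 (adjusted p = 0.0341). MRPL52, another member of the crest, had 6.25, 7.05 and 8.79 FPKM against 11.3, 15.5 and 14.4, a log2 fold change of 0.82 ± 0.15 (adjusted p = 0.00124). Of the 6 members at the exit tunnel 3 were higher and 1 lower, and 3 were higher and 0 lower in limma after that correction. The corrected fit called 2677 of 10969 genes with an annotation higher and 2434 lower. MRPL23 rose by 0.78 ± 0.12 (adjusted p = 0.000533), from 48.4, 51.4 and 61.0 FPKM to 85.0, 87.2 and 106. MRPL47, which also has a bacterial relative, fell by 0.39 on the log2 scale (adjusted p = 0.00995), from 24.8, 22.1 and 20.3 FPKM to 15.5, 18.5 and 16.5. MRPL45, which ties the tunnel to the inner membrane, had 22.2, 20.9 and 21.0 FPKM against 23.1, 22.9 and 24.2. It did not pass (0.13 ± 0.08, adjusted p = 0.189). These places cover few members each, and 14 of 29 large-subunit members grouped as having a bacterial relative were higher against 11 of 20 grouped as having none.

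MRPL28 showed the largest rise. Its FPKM was 12.1, 14.6 and 18.7 in parental cells and 42.6, 45.6 and 50.2 in the libraries labelled knockout, a log2 fold change of 1.56 ± 0.14 (adjusted p = 5.03e-05). The gene overlaps TMEM8A on its own strand. MRPL34, a short protein kept from bacteria, had 12.1, 11.3 and 15.4 FPKM against 36.9, 37.5 and 40.9, a log2 fold change of 1.51 ± 0.12 (adjusted p = 2.9e-05). MRPL55 had 13.2, 16.3 and 17.8 FPKM against 42.3, 41.1 and 54.5, a log2 fold change of 1.48 ± 0.14 (adjusted p = 5.23e-05). MRPL54, which has no bacterial relative, had 5.48, 6.19 and 8.89 FPKM against 18.5, 17.4 and 20.0, a log2 fold change of 1.34 ± 0.15 (adjusted p = 0.000117). In each of these 4 genes every library labelled knockout lay far above every parental library.

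On the small subunit, MRPS34 rose from 59.2, 60.7 and 72.2 FPKM to 136, 145 and 170, a log2 fold change of 1.22 ± 0.11 (adjusted p = 5.19e-05). MRPS12 rose from 78.3, 88.6 and 93.4 FPKM to 148, 154 and 169, a log2 fold change of 0.85 ± 0.10 (adjusted p = 0.000117). Both groups were well separated in both genes. MRPS7, which contacts the tRNA exit site, rose by 0.70 ± 0.09 (adjusted p = 0.000288) and MRPS24 by 0.59 ± 0.13 (adjusted p = 0.00363). MRPS24 is overlapped on its own strand by the read-through gene URGCP-MRPS24, and MRPS12 overlaps SARS2 on the other strand. The MRPS18 paralogs differed in this comparison as well. MRPS18A rose by 0.89 ± 0.13 (adjusted p = 0.000468), while MRPS18B at 0.25 ± 0.10 (adjusted p = 0.0604) and MRPS18C at -0.25 ± 0.14 (adjusted p = 0.146) did not pass. The differences between the paralogs were not tested.

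The falls were led by MRPL1. Its FPKM was 18.1, 14.4 and 13.6 in parental cells and 6.35, 9.17 and 6.36 in the libraries labelled knockout, a log2 fold change of -0.99 ± 0.15 (adjusted p = 0.000605). MRPL19, a large-subunit protein at the subunit interface, had 14.6, 14.4 and 12 FPKM against 7.29, 8.34 and 6.48, a log2 fold change of -0.81 ± 0.12 (adjusted p = 0.000466). MRPL39 had 15.6, 14.5 and 11.4 FPKM against 6.24, 9.42 and 7.34, a log2 fold change of -0.78 ± 0.16 (adjusted p = 0.0022). None of these groups overlapped. MRPL50, a mitochondria-specific protein, had 8.56, 8.40 and 8.15 FPKM against 4.61, 6.35 and 4.32, a log2 fold change of -0.64 ± 0.13 (adjusted p = 0.0026). MRPS36, the dehydrogenase component, had 7.84, 6.35 and 5.92 FPKM against 3.21, 5.05 and 3.7, a log2 fold change of -0.64 ± 0.15 (adjusted p = 0.00575). MRPS36 has 5 and MRPL50 has 3 annotated pseudogenes of the same name, and how the authors assigned reads shared with such copies is not stated. MRPS35 fell from 122, 112 and 103 FPKM to 77.2, 81.5 and 80.4, a log2 fold change of -0.49 ± 0.09 (adjusted p = 0.00143).

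MRPS17 and MRPL42 each had a library labelled knockout far from the others. MRPS17 was named after its values were seen, and its FPKM was 11.2, 12.1 and 11 in parental cells and 8.34, 10.8 and 0 in the libraries labelled knockout. MRPL42 had 20.8, 13.1 and 9.65 FPKM in parental cells and 4.99, 23.2 and 3.92 under the knockout label. Neither passed (adjusted p = 0.134 and 0.241). Both have 4 annotated pseudogenes of the same name. MRPL44, which carries a ribonuclease III-like fold, had a log2 fold change of 0.06 ± 0.10 (adjusted p = 0.604), and MRPS30 had -0.18 ± 0.09 (adjusted p = 0.0992).

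**Figure D2:**
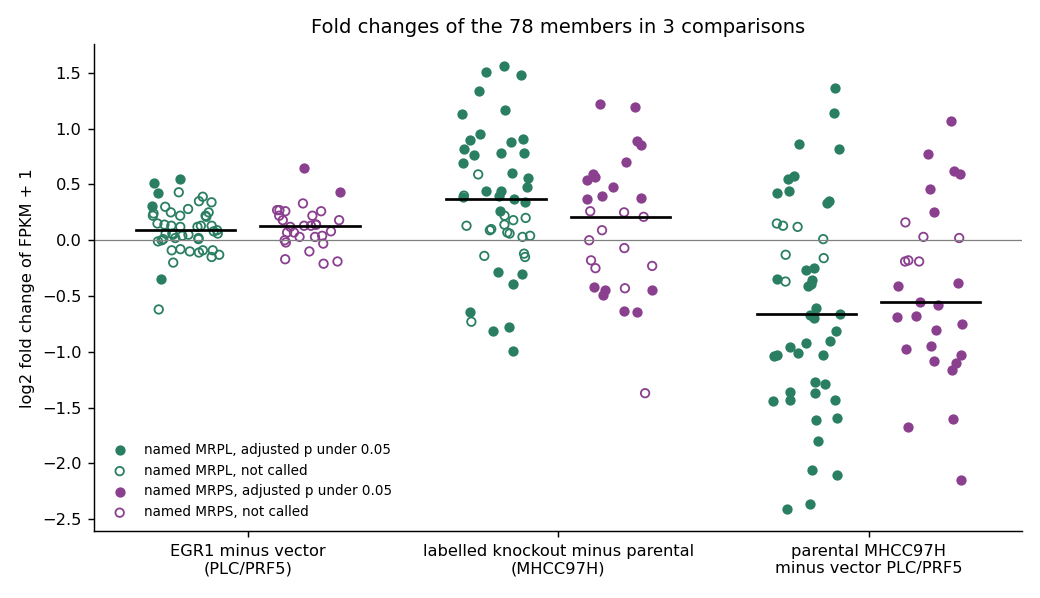
Each point is the log2 fold change of FPKM + 1 of 1 member in 1 of 3 comparisons, with MRPL members on the left and MRPS members on the right of each pair, filled where the adjusted p is under 0.05, and the bar is the median. The members spread from -0.62 to 0.65 with EGR1 overexpression, with medians of 0.09 and 0.13, and far more widely in the other comparisons.

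GC content moved with these results. Across all genes with an annotation, a smooth trend on GC content and transcript length accounted for 18.2% of the variance of the fold changes with EGR1 overexpression, 54.6% under the knockout label and 8.13% between the cell lines. Over the 78 members the Spearman correlation of fold change with GC content was -0.33, 0.76 and -0.44 in the same order. It describes genes of the same libraries, which are not independent replicates. Of the 22 members at or under 45% GC, 1 was higher and 9 lower under the knockout label, with a median log2 fold change of -0.27. Of the 36 between 45% and 55%, 19 were higher and 4 lower, with a median of 0.38. Of the 20 at or over 55%, 17 were higher and 0 lower in limma, with a median of 0.82. Over all genes 75.7% of those at or over 55% GC were higher, and 70.1% of those at or under 45% were lower. The 5 largest rises were in genes with a GC content between 55.2% (MRPL34) and 64.8% (MRPS34). The 5 largest falls were in genes between 35.0% (MRPL50 and MRPS36) and 41.7% (MRPL39). Between the cell lines the member medians from the lowest to the highest GC range were -0.05, -0.68 and -1.04. Those of all genes were 0.45, -0.11 and -0.53.

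With the trend on GC content and length removed, the comparison under the knockout label called 29 members higher and 13 lower. Over the 10969 genes with an annotation it called 2677 higher and 2434 lower. The median log2 fold change was 0.12 for the members against 0.00 for all genes. Of the 37 rises 24 and of the 13 falls 8 held their direction and their call. The rises held by MRPL34 (1.04), MRPL55 (0.92), MRPL28 (0.91), MRPL54 (0.77), MRPS34 (0.46) and MRPS12 (0.24) were smaller than before. MRPL12 at 0.15 (adjusted p = 0.0573), MRPL23 at 0.06 (adjusted p = 0.456) and MRPS24 at 0.06 (adjusted p = 0.406) no longer passed. The falls that held were those of MRPL1 (-0.56), MRPL39 (-0.50), MRPL19 (-0.20), MRPL32, MRPS6, MRPS9, MRPS10 and MRPS22. MRPL38, named after its values were seen, passed in opposite directions, at 0.34 before (adjusted p = 0.016) and -0.39 after the correction (adjusted p = 0.000861). The correction removes any change that follows GC content, whatever its source.

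**Figure D3:**
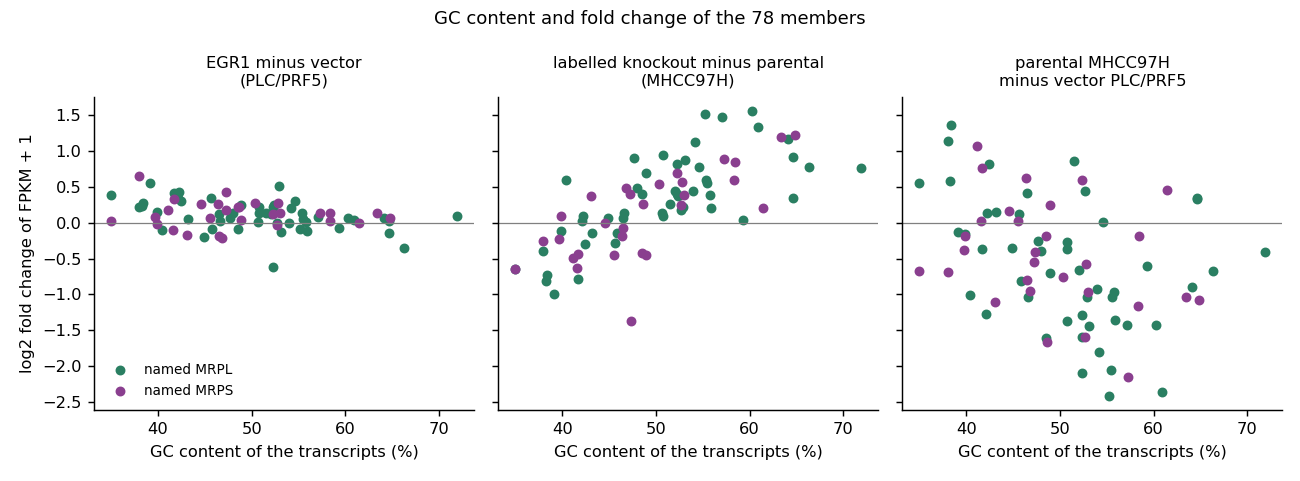
Each point is 1 of the 78 members, with the GC content of its transcripts in percent on the x axis and its log2 fold change of FPKM + 1 on the y axis, in 1 panel for each comparison. The points fall from left to right with EGR1 overexpression and between the cell lines, with Spearman correlations of -0.33 and -0.44. They rise under the knockout label, at 0.76.

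The comparisons within the 2 cell lines share no library, so their calls can be set side by side. Of the 7 members called with EGR1 overexpression 5 were also called under the knockout label, which is 71.4% of the first list and 10.0% of the second, and 64.1% of all members were called there. MRPL1, MRPL3 and MRPL39 were higher with EGR1 and lower under the knockout label, MRPL23 was lower and then higher, and MRPS25 was higher in both. MRPL3 under the knockout label had 64.8, 69.2 and 67.3 FPKM, below the 84.3, 86.4 and 77.6 of parental cells, a log2 fold change of -0.30 ± 0.08 (adjusted p = 0.0105). MRPS25 had 5.85, 6.37 and 5.88 FPKM against 4.19, 4.49 and 4.26, a log2 fold change of 0.40 ± 0.10 (adjusted p = 0.00552). MRPL1 and MRPL39 passed in both comparisons after the GC correction too, with the same opposite directions, and MRPS25 stayed higher in both. The EGR1 mRNA was higher in both comparisons.

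**Figure D4:**
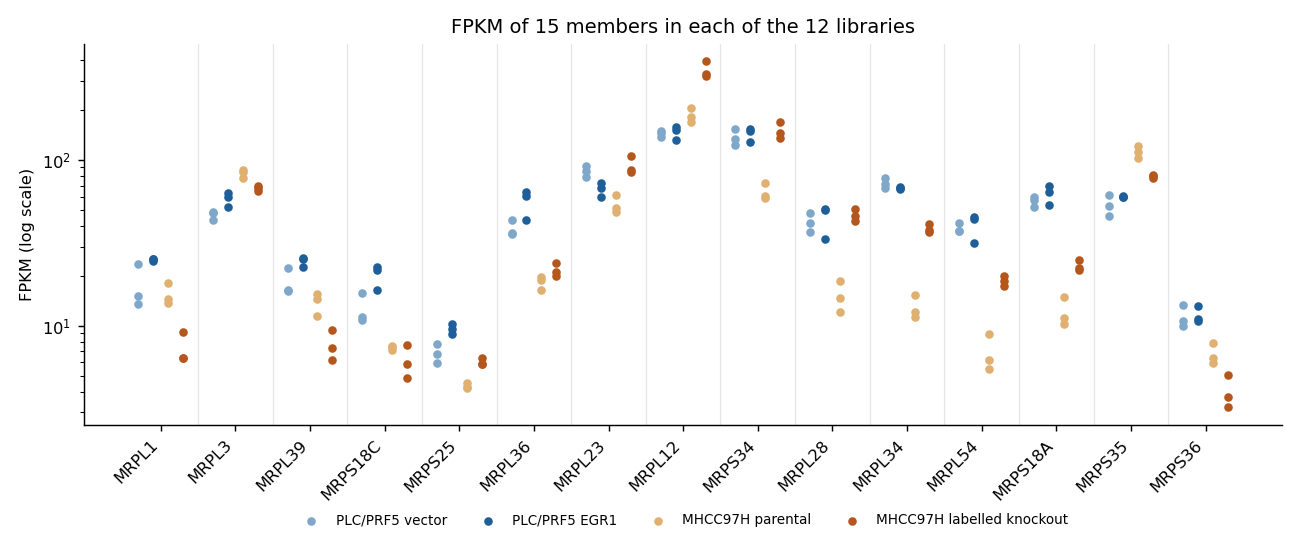
FPKM of 15 members on a log axis, with 1 point per library and 4 columns of 3 points per gene for the 4 groups. MRPL1 and MRPL39 are highest with EGR1 overexpression and lowest under the knockout label, while MRPL28, MRPL34, MRPL54 and MRPS18A are lowest in parental MHCC97H.

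The third comparison set parental MHCC97H against vector PLC/PRF5, which differ in cell line and in the presence of the vector, so neither can be told apart from the other. Most members were lower in MHCC97H. Large-subunit proteins led the falls, MRPL34, MRPL54, MRPL52 and MRPL2 among them, and MRPL42, MRPL47, MRPS35, MRPL58 and MRPL3 led the rises. Of the 78 members 65 (83.3%) passed, against 79.8% of the 12046 genes tested. Lower were 49 (62.8%), against 40.9% of genes, and higher were 16 (20.5%), against 38.8% of genes. The groups did not overlap for 68 members (87.2%), against 81.0% of genes. The median log2 fold change was -0.59 over the members, -0.66 for MRPL and -0.55 for MRPS, and -0.02 over all genes. With both lines scaled to the same total it was -0.49 against 0.08.

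MRPL34 was 71.4, 78.2 and 67.2 FPKM with the vector and 12.1, 11.3 and 15.4 in parental MHCC97H, a log2 fold change of -2.41 ± 0.12 (SE, n = 3 and 3, adjusted p = 2.23e-07, limma). MRPL54 was 37.2, 41.4 and 37.4 FPKM against 5.48, 6.19 and 8.89, a log2 fold change of -2.36 ± 0.15 (adjusted p = 1.04e-06). These are the widest gaps of the set. MRPS18A had 57.3, 59.9 and 52.3 FPKM against 10.3, 11.1 and 14.8, a log2 fold change of -2.15 ± 0.13 (adjusted p = 7.59e-07). MRPL52 fell by 2.10 on the log2 scale (adjusted p = 4.32e-06) and MRPL2, whose bacterial relative lies beside the catalytic centre, fell by 2.06 (adjusted p = 4.14e-06), from 50.6, 52.7 and 45.8 FPKM to 8.64, 10.8 and 14.7. The paralogs of MRPS18A were lower as well, MRPS18B at -1.60 ± 0.07 (adjusted p = 8.36e-08) and MRPS18C at -0.69 ± 0.14 (adjusted p = 0.00157).

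In the other direction MRPL42 had 3.86, 5.64 and 4.93 FPKM with the vector and 20.8, 13.1 and 9.65 in parental MHCC97H, a log2 fold change of 1.36 ± 0.24 (adjusted p = 0.000738). MRPL47 had 7.81, 12.3 and 9.14 FPKM against 24.8, 22.1 and 20.3, a log2 fold change of 1.14 ± 0.15 (adjusted p = 0.000127). MRPS35 had 45.6, 61.6 and 52.8 FPKM against 122, 112 and 103, a log2 fold change of 1.07 ± 0.12 (adjusted p = 3.8e-05). The groups were apart in all of them. MRPL58 rose by 0.86 ± 0.09 (adjusted p = 2.4e-05) and MRPL3 by 0.82 ± 0.08 (adjusted p = 1.86e-05). MRPL12 was higher by 0.35 ± 0.09 (adjusted p = 0.0052), MRPS7 by 0.59 ± 0.07 (adjusted p = 8.31e-05) and MRPS30 by 0.62 ± 0.12 (adjusted p = 0.00096). MRPL45 at -1.03 ± 0.07 (adjusted p = 2.17e-06) and MRPL44 at -0.35 ± 0.09 (adjusted p = 0.00723) were lower. With the GC and length trend removed 18 members were higher and 45 lower, with a median of -0.35. Over the 11385 genes with an annotation 4490 were higher and 4790 lower, with a median of -0.03. Among the members 41 of the 49 falls and 13 of the 16 rises held. MRPL16 and MRPL21, named after their values were seen, passed in opposite directions, MRPL16 at -0.27 before (adjusted p = 0.0201) and 0.16 after (adjusted p = 0.0271), and MRPL21 at -0.36 before (adjusted p = 0.00167) and 0.23 after (adjusted p = 0.00559). This comparison and the one under the knockout label use the same parental libraries, so a low parental value enters both, and no overlap between them is given as a result.

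MRPL46 of the large subunit and MRPS11 of the small subunit lie head to head on chromosome 15, and they are the 1 pair of members whose annotated starts are within 1 kb of each other. MRPL46 runs on the minus strand from 88459476 to 88467419 and MRPS11 on the plus strand from 88467453 to 88480773 (GRCh38, GENCODE 29), so the starts are 34 bases apart. The FPKM of MRPL46 was 38.3, 43.1 and 44.6 with the vector, 44.1, 50.1 and 56.2 with EGR1, 15.3, 16.4 and 18.1 in parental MHCC97H and 20.1, 21.5 and 23.6 under the knockout label. That of MRPS11 was 24.0, 23.8 and 21.4, then 21.4, 31.9 and 32.1, then 12.7, 13.5 and 13.8, and 19.1, 19.3 and 21.3. Both fell between vector PLC/PRF5 and parental MHCC97H, by 1.29 and 0.75 on the log2 scale (adjusted p = 2.98e-06 and 4.94e-05). Both were higher under the knockout label, by 0.37 ± 0.10 (adjusted p = 0.010) and 0.54 ± 0.09 (adjusted p = 0.000817), and neither passed with EGR1 overexpression (adjusted p = 0.116 and 0.197). MRPL46 lost its call under the knockout label with the GC and length correction, at 0.03 (adjusted p = 0.703), and with scaling to the same total, at 0.22 (adjusted p = 0.0615), and with the correction it passed with EGR1, at 0.26 (adjusted p = 0.0343). The pair was picked out for its position.

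Promoter sequences from RefSeq (GRCh38.p14), from 250 bases before to 50 bases after each start, were found for 69 of the 78 members in 85 windows, since some genes have several starts. They were searched on both strands for 4 factors known to bind promoters of mitochondrial or growth-related genes. The letters were GCGTGGGCG and GCGGGGGCG for EGR1, GCGCATGCG for NRF1, CCGGAAG for the ETS family that includes GABP, and AAGATGGCG for YY1. None of these motifs contains another. The EGR1 letters were found in 5 members (7.25%, against 6.95% of 27305 genes), namely MRPL55, MRPS2, MRPS5, MRPS6 and MRPS24. Of these 5, 0 passed with EGR1 overexpression in limma, with a median log2 fold change of 0.08. Of the 64 members with a window but without these letters 6 were higher and 0 lower, with a median of 0.12. Under the knockout label 3 of the 5 were higher and 1 lower, against 30 and 11 of the 64. With only 5 members, a difference between these groups was not tested. The ETS letters were found in 30 members (43.5%, against 12.2% of genes), the YY1 letters in 13 (18.8%, against 2.14%) and the NRF1 letters in 3 (4.35%, against 2.34%). By window of the same length the shares were 38.8% against 10.3% for ETS, 15.3% against 1.75% for YY1, 7.06% against 5.77% for EGR1 and 3.53% against 1.92% for NRF1. The members with and without the ETS letters had medians of 0.13 and 0.09 with EGR1 overexpression and of 0.26 and 0.37 under the knockout label. The 27305 genes were not limited to expressed genes, while all members were expressed, so the shares are not matched for expression. A match is a description of letters and not a binding site, and binding was not measured in these files.

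Of the promoters, 5 are shown as examples, 2 with the EGR1 letters among members that rose under the knockout label, that of MRPS18C for the largest rise with EGR1, that of MRPS18A for a wide gap between the cell lines, and that of MRPL46 for the shared start region. Each runs 5′ to 3′ on the strand of the gene, with the matched letters in capitals, which are read on the opposite strand where they appear as the reverse complement. MRPL55 lies at chr1:228109250-228109549 on the minus strand, with the EGR1 letters. MRPS24 lies at chr7:43869468-43869767 on the minus strand, with the EGR1 and YY1 letters. MRPS18C lies at chr4:83455808-83456107 on the plus strand, with the ETS letters and then those of NRF1. MRPS18A lies at chr6:43687742-43688041 on the minus strand, with the ETS and YY1 letters. MRPL46 lies at chr15:88467339-88467638 on the minus strand, with the YY1 letters.
MRPL55: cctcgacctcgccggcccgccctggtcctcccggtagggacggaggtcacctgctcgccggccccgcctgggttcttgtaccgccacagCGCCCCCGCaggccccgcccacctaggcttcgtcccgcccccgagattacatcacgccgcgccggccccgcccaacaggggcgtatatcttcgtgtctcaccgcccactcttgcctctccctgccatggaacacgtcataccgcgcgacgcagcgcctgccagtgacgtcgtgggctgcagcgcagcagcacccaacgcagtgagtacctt
MRPS24: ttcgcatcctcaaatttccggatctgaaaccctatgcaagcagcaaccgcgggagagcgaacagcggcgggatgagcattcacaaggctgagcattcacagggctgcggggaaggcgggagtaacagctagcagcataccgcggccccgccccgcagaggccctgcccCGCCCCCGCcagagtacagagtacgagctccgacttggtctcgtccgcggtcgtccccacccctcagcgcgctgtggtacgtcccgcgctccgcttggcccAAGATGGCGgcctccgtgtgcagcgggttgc
MRPS18C: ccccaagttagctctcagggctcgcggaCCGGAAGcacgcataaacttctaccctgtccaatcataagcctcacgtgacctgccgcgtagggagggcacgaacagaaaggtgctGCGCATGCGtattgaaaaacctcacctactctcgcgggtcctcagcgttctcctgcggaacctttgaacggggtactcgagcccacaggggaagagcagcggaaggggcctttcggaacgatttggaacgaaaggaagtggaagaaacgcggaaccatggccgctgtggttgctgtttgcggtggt
MRPS18A: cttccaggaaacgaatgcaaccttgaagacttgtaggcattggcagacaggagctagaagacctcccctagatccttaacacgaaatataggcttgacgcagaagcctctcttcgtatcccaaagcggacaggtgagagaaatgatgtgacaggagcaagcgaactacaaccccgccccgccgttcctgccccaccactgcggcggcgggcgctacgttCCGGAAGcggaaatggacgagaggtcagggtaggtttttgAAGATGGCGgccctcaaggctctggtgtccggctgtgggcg
MRPL46: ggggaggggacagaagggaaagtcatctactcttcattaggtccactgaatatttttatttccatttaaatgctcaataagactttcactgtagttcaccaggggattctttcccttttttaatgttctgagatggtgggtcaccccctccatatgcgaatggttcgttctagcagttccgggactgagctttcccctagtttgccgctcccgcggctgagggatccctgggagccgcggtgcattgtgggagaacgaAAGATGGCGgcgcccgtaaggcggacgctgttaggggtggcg
The YY1 letters of MRPS24, MRPS18A and MRPL46 all lie after the annotated start, while the EGR1, ETS and NRF1 letters shown here lie before it.

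Genes that work with the mitoribosome were counted from the lists given here. The 13 proteins encoded by mitochondrial DNA are what the mitoribosome makes. With EGR1 overexpression 8 of their genes were higher and 0 lower in limma, against 19.2% and 10.4% of all genes tested. The median log2 fold change was 0.60, against 0.09 for all genes. Under the knockout label 0 of the 13 were higher and 8 lower, against 34.8% and 31.5% of all genes, with a median of -0.51. At an adjusted p under 0.05 in both comparisons, 4 of the largest were MT-ND4L (1.07 and -1.10), MT-ATP8 (0.66 and -1.79), MT-ND2 (0.71 and -0.98) and MT-ND5 (0.82 and -0.74). MT-ND2, MT-ND4L and MT-ND5 are subunits of complex I and MT-ATP8 is a subunit of ATP synthase. Their share of the summed FPKM was 6.82% to 7.80% with the vector, 9.03% to 11% with EGR1, 12.9% to 14% in parental MHCC97H and 7.36% to 10.8% under the knockout label. Between the 2 cell lines 10 were higher and 1 lower in MHCC97H, against 38.8% and 40.9% of all genes. The median was 0.57, where the mitoribosomal members had a median of -0.59. The libraries were treated with a nuclease that removes part of the cDNA of highly expressed genes. Its part in the values of the mitochondrially encoded genes was not tested.

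The counts of this paragraph stand beside 19.2% of all genes tested higher and 10.4% lower with EGR1. Under the knockout label these shares were 34.8% and 31.5%. Of 5 mitoribosomal proteins with other names, DAP3, PTCD3, CHCHD1, AURKAIP1 and GADD45GIP1, 1 was higher with EGR1. Under the knockout label 2 were higher and 2 lower. PTCD3, a small-subunit protein that binds RNA, rose by 0.28 with EGR1 (adjusted p = 0.0407) and fell by 0.75 on the log2 scale under the knockout label (adjusted p = 0.000494). Of 28 assembly factors, 1 was higher with EGR1, and 14 were higher and 6 lower under the knockout label, where 34.8% of all genes were higher and 31.5% lower. With the GC and length correction 5 of the 28 were higher and 5 lower there, and 6 higher and 3 lower with EGR1. The factor higher with EGR1 was MTERF3, a large-subunit assembly factor, at 0.48 (adjusted p = 0.0425), which was lower at -0.66 under the knockout label (adjusted p = 0.00527). Of 15 translation factors in the table, 2 were higher with EGR1, and 3 were higher and 7 lower under the knockout label, and after the correction 1 was higher with EGR1, and 4 were higher and 1 lower under the knockout label. LRPPRC, which stabilises mitochondrial mRNAs, was at 0.42 (adjusted p = 0.0219) and -0.61 (adjusted p = 0.00477).

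Over all genes tested 19.2% were higher and 10.4% lower with EGR1. Of 12 regulators of mitochondrial biogenesis 4 were higher with EGR1 and 0 lower in limma. These were TFAM, which packages and transcribes mitochondrial DNA, at 0.57 (adjusted p = 0.0103), GABPA, the DNA-binding subunit of GABP, at 0.57 (adjusted p = 0.0346), TFB2M, a transcription factor of the organelle, at 0.41 (adjusted p = 0.0378), and ESRRA, a nuclear receptor, at 0.33 (adjusted p = 0.0466). Under the knockout label TFAM was at -0.69 (adjusted p = 0.00247), GABPA at -0.96 (adjusted p = 0.0015) and TFB2M at -0.54 (adjusted p = 0.00541), all lower, and ESRRA was higher at 0.65 (adjusted p = 0.000567). Of the 11 regulators tested there, 2 were higher and 3 lower, against 34.8% and 31.5% of all genes. The regulators had medians of 0.22 with EGR1 and -0.15 under the knockout label, against 0.09 and 0.02 for all genes. After the GC correction MTERF3 and TFB2M passed in both comparisons, and TFAM (adjusted p = 0.0664 and 0.695), GABPA (adjusted p = 0.280 and 0.0666) and LRPPRC (adjusted p = 0.0892 and 0.119) in neither. PTCD3 at 0.06 (adjusted p = 0.524) and MT-ATP8 at 0.15 (adjusted p = 0.565) no longer passed with EGR1, and ESRRA at -0.01 (adjusted p = 0.916) no longer passed under the knockout label.

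The cytosolic ribosome was taken for comparison. Of its 83 proteins tested 0 were higher and 6 lower with EGR1 in limma, against 19.2% and 10.4% of all genes. The median log2 fold change was -0.07. Under the knockout label 25 were higher and 23 lower, against 34.8% and 31.5% of all genes, with a median of 0.07. RPS28 was lower in both comparisons, at -0.60 (adjusted p = 0.00472) and -0.67 (adjusted p = 0.000322), and RPL4 was lower in both, at -0.31 (adjusted p = 0.045) and -0.28 (adjusted p = 0.0197). Of 38 nuclear complex I subunits, 1 was higher and 1 lower with EGR1, and 18 were higher and 7 lower under the knockout label, with medians of 0.03 and 0.24. NDUFA5 was at 1.20 (adjusted p = 0.00572) and -0.68 (adjusted p = 0.0411), and NDUFB11 at -0.49 (adjusted p = 0.00523) and 0.91 (adjusted p = 0.000142). Between the cell lines 4 of 84 cytosolic ribosomal proteins were higher and 64 lower in MHCC97H, with a median of -0.70. For complex I 3 of 38 subunits were higher and 30 lower, with a median of -1.09. Over all genes 38.8% were higher and 40.9% lower there. With the GC and length correction 1 cytosolic ribosomal protein was higher and 18 lower with EGR1, and 19 were higher and 27 lower under the knockout label. For complex I these counts were 3 and 6, and 11 and 4, and for the mitochondrially encoded genes 7 and 0, and 1 and 7. Differences between lists were not tested.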

How the data were processed

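RNA from 12 libraries of PLC/PRF5 and MHCC97H cells was selected with oligo(dT), treated with duplex-specific nuclease, which removes part of the cDNA from highly expressed genes, and read on a NovaSeq instrument from Illumina. The authors deposited FPKM per gene and library. The submitters' processing notes name StringTie and hg38, and the aligner, the annotation and the versions are not given in the sources used here. Of the 22963 names, 3031 are loci named by transcript assembly. All 12 columns were used as deposited. FPKM are not counts, so no count model was used, and no depth or counting interval could be given.

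The FPKM were log2-transformed after adding 1, which understates the change of low genes. Each comparison was fitted on its 6 libraries alone with limma 3.58.1 in R 4.3.3, with an intensity trend and no covariate, over genes whose FPKM averaged 1 or more. Tests were 2-sided and adjusted by Benjamini-Hochberg over all genes tested, with a threshold of 0.05. All 78 members were tested in every comparison, and an exact permutation test of 3 against 3 cannot go below 0.1. The scripts were tested on simulated data.

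Coordinates, GC content and length came from GENCODE 29 on GRCh38, which matched 19798 names and all 78 members. For the correction, each library's dependence on transcript GC content and log length was fitted by splines (5 degrees of freedom) and subtracted. Promoters came from RefSeq. Alternatives were a pseudocount of 0.1, no low-value filter, scaling to a common total, quantile normalization, no trend, a joint fit of all 12 libraries, a replicate block, the GC and length correction, stricter thresholds and leaving out each library.

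The members and lists were chosen with earlier results of these data known. Members named in each comparison were the 5 largest rises and falls among those past the threshold with groups that do not overlap. Members past the threshold in both within-line comparisons, the 5 highest and 5 lowest in mean FPKM, and 10 members with known roles were added. From the other lists, at most 4 genes past the threshold in both comparisons were named by size of change. MRPL10, MRPL11, MRPL16, MRPL21, MRPL32, MRPL38, MRPL53, MRPS6, MRPS9, MRPS10, MRPS17 and MRPS22 were named after their values were seen, MRPL46 and MRPS11 for their position, and MRPS2 and MRPS5 for their promoter letters. Figures were made in Python 3.11.15 with matplotlib 3.10.9.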

Additional observations from a re-analysis of the deposited data

How the results depend on the processing

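With EGR1 overexpression, 6 members were higher and 1 lower. The count of higher members was 1 without the low-value filter, 13 with the GC and length correction, 12 with that correction and the replicate block, 0 at an adjusted p under 0.01 and 1 at a change of at least 1.5-fold. The count of lower members was 8 with the correction, 7 with the correction and the block, 2 with all 12 libraries in one fit, 0 at the stricter threshold and 0 at 1.5-fold. Leaving out 1 library gave 0 to 17 higher and 0 to 1 lower, with 16.7% to 34.3% of all genes called. In limma 14 members were higher and 2 lower at an unadjusted p under 0.05 with all libraries. Under the knockout label 22 members were higher and 6 lower at a change of at least 1.5-fold. Leaving out 1 library of that comparison gave 32 to 38 higher and 11 to 16 lower, with 55.7% to 65.1% of all genes called. There the median log2 fold change of 0.26 became 0.12 with the correction, 0.13 with quantile normalization and 0.12 with scaling, and the large-minus-small difference of 0.23 became 0.13 with the correction. Between the cell lines 8 members were higher at 1.5-fold. Leaving out 1 library gave 15 to 18 higher and 46 to 50 lower, with 74.3% to 79.5% of all genes called. The median of -0.59 became -0.35 with the correction, -0.45 with quantile normalization and -0.49 with scaling. The large-minus-small difference of -0.14 became -0.01 with the correction and -0.18 with the subunits assigned by structure. The cause of these changes was not tested, apart from the fewer libraries and stricter limits themselves.

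Of the fold changes of the members chosen by the stated rule under the alternatives, 785 held direction and call, 74 held direction only and 11 reversed. The reversals under the knockout label were MRPL47 at 0.09, MRPL50 at 0.14 and MRPL58 at -0.01 with the correction, with or without the block, and MRPL58 at -0.0017 with quantile normalization. Between the cell lines they were MRPL23 at 0.10 and MRPL50 at -0.11 with the correction, with or without the block. None of these 11 passed the threshold after reversing. Members named after their values were seen are not among them, and of those MRPL38 passed in the opposite direction with the correction under the knockout label, and MRPL16 and MRPL21 did so between the cell lines.

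The replicate numbers come from the labels, which do not say whether they pair the libraries, and 3 libraries per group cannot settle it. The correlations of same-numbered libraries were -0.132, 0.136 and -0.0758 in PLC/PRF5, 0.0317, 0.0302 and 0.467 in MHCC97H, and -0.393, -0.00823 and -0.0533 between the lines. Those of different-numbered libraries ran from -0.165 to 0.205, from -0.408 to 0.381 and from -0.308 to 0.396 in the same order. With the replicate block alone 9 members were higher and 1 lower with EGR1, 41 and 14 under the knockout label, and 15 and 48 between the lines.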
